A study of Mus musculus with 8 samples.

Results

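Oligoadenylate synthetase (OAS) genes were compared between the corneas of BALB/c and C57BL/6N mice. The 8 members, Oas1a, Oas1b, Oas1c, Oas1g, Oas2, Oas3, Oasl1 and Oasl2, are 8 of the 12 Oas and Oasl genes in the annotation and 8 of the 54532 genes in the expression table, and were matched by Ensembl identifier to gene symbols. The genes were chosen by family name, but with the rlog differences between these same 2 groups of corneas already known, so every strain difference of a member is given as a description, with no p-value, and counts of members past the threshold used for all genes are descriptions too. Total RNA was sequenced from 4 naive (untreated) corneas of BALB/c mice, named BALB/cN in the study, and from 4 naive corneas of C57BL/6N mice. Only males of both strains were sequenced, and no age is stated for the sequenced mice apart from that of the mice used for corneal phenotyping. Whether each cornea came from a separate mouse is not given in the sources used here, so that p-values measure only the spread between these corneas. The strains are inbred and differ all over the genome, and a strain difference cannot be assigned to one locus in this design. Genotype also cannot be told apart from any difference in housing, infection status or sample handling between the strains. The numbers in the sample titles of all BALB/c corneas come before those of all C57BL/6N corneas.

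OAS enzymes are sensors of double-stranded RNA. On binding it they join ATP into short oligoadenylates, which act as second messengers in antiviral defence. The genes are classical interferon-stimulated genes: interferon receptors signal through JAK kinases to a transcription factor complex that includes STAT2 and IRF9 and binds interferon-stimulated response elements (ISRE) in promoters. At the surface of the eye this system is part of the defence of the epithelium against viruses.

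Both groups of genes lie on mouse chromosome 5 (GRCm38). Oasl2 (chr5:114896936-114912234, plus strand) and Oasl1 (chr5:114923240-114937915, plus strand) form one pair. The Oas genes lie together further along, from the start of Oas2 at 120730333 to the end of Oas1d at 120921652. In that stretch the members are Oas2 (chr5:120730333-120749853, minus), Oas3 (chr5:120753098-120777661, minus), Oas1c (chr5:120800194-120812514, minus), Oas1b (chr5:120812635-120824163, plus), Oas1g (chr5:120876142-120887613, minus) and Oas1a (chr5:120896256-120907521, minus). Oas1b is annotated as a polymorphic pseudogene, since many laboratory strains carry a version that encodes a truncated protein, and the other 7 members are annotated as protein coding.

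The promoter sequences that carry a match to the ISRE core are shown because the family is known for its response to interferon. The letters searched were GAAA, any 2 bases and GAAA again, on both strands of the 300 bases around each gene start in RefSeq (GRCm38.p6), and matched bases are in capitals. A promoter was given for 6 of the 8 members, and 4 of these held a match, beside 3.44% of all 32851 promoters. No promoter was given for Oas2 and Oas1b, so that of Oas2 was not searched. The reference genome is of a C57BL/6 mouse, and the BALB/c sequence was not read.
Oas1a, chr5:120907523-120907552, minus strand: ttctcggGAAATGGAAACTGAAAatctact
Oas1g, chr5:120887609-120887638, minus strand: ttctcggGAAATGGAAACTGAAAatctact
Oas1c and Oas1b, chr5:120812606-120812635, plus strand: ttcccggGAAATGGAAACTGAAAgtcccat
Oas3, chr5:120777715-120777744, minus strand: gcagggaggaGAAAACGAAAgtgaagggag
The run of 16 capitals, made of 2 overlapping matches, was the same in Oas1a, in Oas1g and between Oas1c and Oas1b, and the windows of Oas1a and Oas1g were identical over all 30 bases. Oas1c and Oas1b are transcribed away from each other with 120 bases between their annotated starts, so they share this match. There were 6 bases between it and the start of Oas1b and 98 bases between it and the start of Oas1c from which the promoter was taken. Counted from the gene start, the matches lay from -20 to -5 in Oas1a, from -18 to -3 in Oas1g and from -75 to -66 in Oas3. The promoters of Oasl1 and Oasl2 held no match in this window. The letters of the gamma-activated site, TTCNNNGAA, were found in Oas1a alone among the 6 promoters, beside 8.30% of all promoters. The ISRE core letters were also present in the promoters of 6 of 13 other interferon-stimulated genes, 3 of 7 nucleic acid sensors, 3 of 18 interferon receptor and signalling genes and 11 of 20 interferon genes.

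The deposited values were regularized log (rlog) values, which are on a log2 scale and are pulled towards the mean of a gene, more so where reads are few. Read counts were therefore also recovered by inverting the transformation. Recovered reads per cornea totalled 36.7 to 41.2 M in BALB/c and 29.7 to 37.0 M in C57BL/6N. Recovered counts are approximate for strongly expressed genes such as Oas2, Oasl1 and Oasl2: only 25.7% of values came within 0.1 of a whole number where a gene averaged over 5000 reads, against 92.2% between 100 and 1000. Corneal epithelium was the main tissue by its markers, with Krt12 at a mean of 857862 normalized reads in BALB/c and 860427 in C57BL/6N, and 0 of 4 epithelial markers differed (limma, adjusted p 0.252 to 0.989, with 0 also at an unadjusted p under 0.05 and by limma voom). The corneas differed in stromal content. The mean rlog value of 4 keratocyte markers (Kera, Lum, Dcn, Aldh1a1) was 11.4 in BALB/c 2, 10.4 in C57BL/6N 3 and 10.7 in C57BL/6N 4, against 13.5 to 13.9 in the other 5 corneas, so the strains were also compared in these 5 corneas alone.

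In BALB/c corneas 7 of the 8 members stood above C57BL/6N corneas, without overlap between the 4 and 4 values, and Oas1c did not. Among the 7, normalized reads were 2.41 to 37.4 times as high in BALB/c. The same 7 were past the threshold used for all genes (limma, adjusted p of 0.01 or less), which 2.83% of the 25402 genes tested passed as higher in BALB/c, 2.91% as lower and 5.74% either way. The strains did not overlap for 18.3% of all genes tested. These counts and shares support nothing about the members, because this contrast entered their choice. The median rlog difference, BALB/c minus C57BL/6N, was 1.67 over the 8 members and 0.0077 over all genes tested. When p-values from limma were recalibrated to the spread of all genes, 0 of the 8 members and 0 genes in all passed, while 7 members and 1725 of all genes were at an unadjusted p under 0.05. In bulk tissue, more RNA per cell and more cells of an expressing type cannot be told apart.

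On the rlog scale the largest differences were in Oas2 and Oas3, the synthetases built from repeated OAS units. In normalized reads the order was another: the ratio of Oas1g, 25.4 on few C57BL/6N reads, was above that of Oas3, 12.8. Oas2 had 11570, 12298, 7516 and 13441 reads in BALB/c corneas 1 to 4 and 376, 335, 119 and 210 reads in C57BL/6N corneas 1 to 4. The lowest BALB/c cornea was therefore far above the highest C57BL/6N cornea. Normalized reads of Oas2 were 10190 ± 2458 in BALB/c and 273 ± 106 in C57BL/6N (mean ± SD, n = 4 each), a ratio of 37.4. The rlog difference was 3.85 (SE 0.19). Oas3, which prefers long double-stranded RNA, had 10469, 11767, 7297 and 11207 reads in BALB/c and 673, 861, 512 and 649 in C57BL/6N. BALB/c 3 and C57BL/6N 3 held the lowest counts of both genes in their strain. Normalized reads of Oas3 were 9246 ± 1771 against 720 ± 95.3, a ratio of 12.8, and the rlog difference was 2.73 (SE 0.11).

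Oas1a and Oas1g encode small active synthetases. Oas1a had 1059, 1537, 509 and 952 reads in BALB/c corneas 1 to 4 and 85, 90, 69 and 72 reads in C57BL/6N corneas. The C57BL/6N corneas were close together and the BALB/c corneas ran from 509 to 1537 reads. Normalized reads were 913 ± 353 against 85.0 ± 6.03, a ratio of 10.7, with an rlog difference of 2.20 (SE 0.19). Oas1g had 548, 660, 362 and 660 reads in BALB/c and 22, 29, 4 and 22 in C57BL/6N, where C57BL/6N 3 was the lowest. Its normalized reads were 507 ± 131 against 19.9 ± 10.3, a ratio of 25.4, and the rlog difference was 2.57 (SE 0.16). The few reads in C57BL/6N make this ratio the least precise among the 8 members, with an SE of 0.61 on the log2 difference of 4.89 in normalized reads. The genes are near copies: 730 stretches of 100 bases are shared between their transcripts, which is 40.9% of those of Oas1a and 31.2% of those of Oas1g. Reads in these stretches could have been split or lost in counting, so the sum of both genes was also taken. It was 1420 ± 459 normalized reads in BALB/c (820 to 1920) and 105 ± 11.6 in C57BL/6N (92.3 to 119), a ratio of 13.5.

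Oas1b and Oas1c are the divergent neighbours, and they differed in their behaviour. The full-length form of Oas1b gives resistance to flaviviruses, and which form these strains carry was not read here. Oas1b had 1434, 1477, 1155 and 1498 reads in BALB/c corneas 1 to 4 and 333, 326, 416 and 468 in C57BL/6N corneas. Every BALB/c cornea was above every C57BL/6N cornea. Normalized reads were 1265 ± 151 against 422 ± 104, a ratio of 3.0, with an rlog difference of 1.14 (SE 0.12). Oas1c, a member not known for synthetase activity, had 472, 513, 486 and 395 reads in BALB/c and 398, 351, 501 and 540 in C57BL/6N. The strains overlapped. Its normalized reads were 423 ± 35.5 against 490 ± 134, a ratio of 0.863, and the rlog difference of -0.12 (SE 0.13) took values from -0.22 to 0.089 over the alternative settings, with a positive sign only in the 5 stroma-rich corneas. Of the stretches of 100 bases in Oas1c, 4.23% are shared with the antisense gene Gm43069, which overlaps it.

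The OAS-like genes had the most reads in both strains. Oasl1, which in mice is known to restrain translation of the interferon regulator IRF7, had 15023, 16825, 15301 and 18092 reads in BALB/c corneas 1 to 4 and 5258, 5108, 6045 and 6193 in C57BL/6N corneas. Normalized reads were 14877 ± 1940 against 6164 ± 1171, a ratio of 2.41, with an rlog difference of 0.97 (SE 0.10). Oasl1 had the smallest ratio of the 7 members that stood apart. Oasl2, which retains synthetase activity, had 25333, 24121, 14979 and 24541 reads in BALB/c and 6312, 5788, 6522 and 8177 in C57BL/6N. Its normalized reads were 20167 ± 4207 against 7278 ± 1388, a ratio of 2.77, and its rlog difference was 1.11 (SE 0.14). As for Oas2 and Oas3, BALB/c 3 was the lowest BALB/c cornea for Oasl2.

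**Figure D1:**
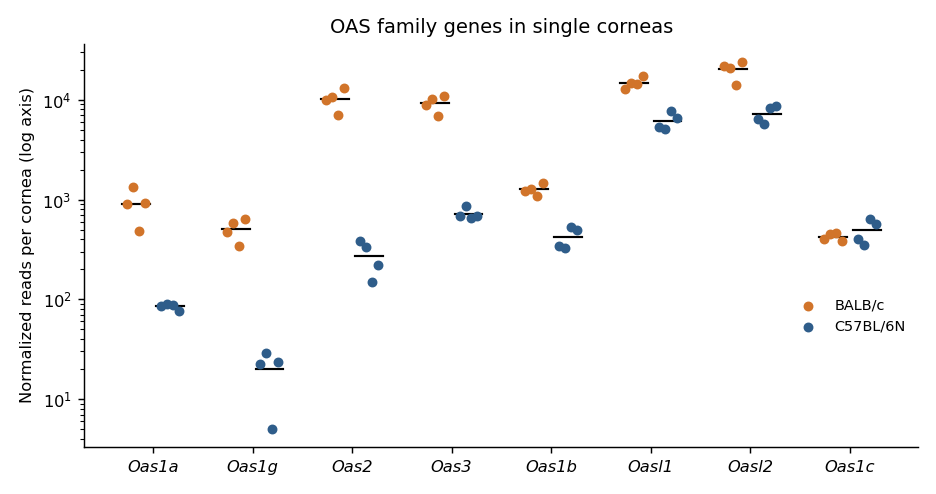
Normalized reads (log axis) of the 8 members in each cornea, with orange points for the 4 BALB/c corneas, blue points for the 4 C57BL/6N corneas, and bars at the strain means. The strains are apart for every gene but Oas1c, and the gap is widest for Oas2 at a ratio of 37.4.

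Of the 4 further family genes, Oas1d was at the floor of the rlog values and was not tested, and Oas1h was listed at 0 in all corneas. Oas1e had 19 to 43 reads in BALB/c and 4 to 14 in C57BL/6N, so that the strains were apart. Its normalized reads were 29.4 ± 10.1 against 9.97 ± 4.13, a ratio of 2.95. The rlog difference of Oas1e, shrunken at such low reads, was 0.29 (SE 0.085) and did not pass the call (limma, adjusted p = 0.0621). Oas1f had 0 to 6 reads in BALB/c and 3 to 10 in C57BL/6N (limma, adjusted p = 0.416). At an unadjusted p under 0.05, 1 of these 2 tested genes passed, and by limma voom on recovered reads 0 passed the call.

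Levels were then set per kilobase of all annotated exons of a gene, which allows genes to be compared with each other. Ratios between genes depend on the length used. In C57BL/6N corneas the order was Oasl1 (2364 ± 449 normalized reads per kilobase), Oasl2 (1142 ± 218), Oas1b (212 ± 52.1), Oas1c (204 ± 55.7), Oas3 (102 ± 13.5), Oas2 (61.3 ± 23.7), Oas1a (45.1 ± 3.2) and Oas1g (8.52 ± 4.42). Over the 4 corneas the ranges of Oas1b and Oas1c overlapped, as did those of Oas2 and Oas1a, and the other neighbours in this order were apart. In BALB/c corneas the order was Oasl1 (5704 ± 744), Oasl2 (3164 ± 660), Oas2 (2289 ± 552), Oas3 (1308 ± 251), Oas1b (635 ± 75.8), Oas1a (484 ± 187), Oas1g (217 ± 56.0) and Oas1c (176 ± 14.8). The ranges of Oasl2 and Oas2 overlapped, and so did those of each neighbouring pair from Oas1b to Oas1c. Oas2 and Oas3 thus stood below Oas1b and Oas1c in C57BL/6N and above them in BALB/c. Of all reads of the 8 genes, Oas2 took 17.7% in BALB/c and 1.76% in C57BL/6N, and Oas3 took 16.1% and 4.66%. The OAS-like genes took 35.0% (Oasl2) and 25.8% (Oasl1) in BALB/c and 47.1% and 39.9% in C57BL/6N.

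**Figure D2:**
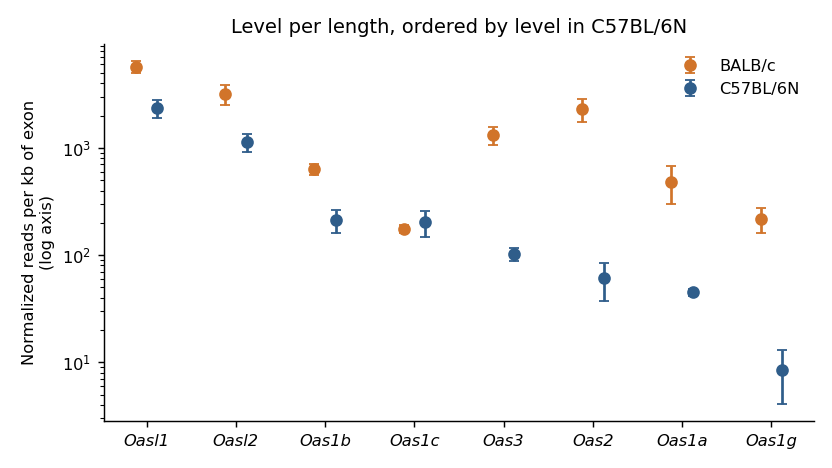
Normalized reads per kilobase of exon (log axis), as mean and SD over 4 corneas, in BALB/c (orange) and C57BL/6N (blue), with genes in the order of their C57BL/6N level. Oas3, Oas2, Oas1a and Oas1g form the low end in C57BL/6N, and in BALB/c Oas2 reaches 2289 and Oas3 1308.

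The position of the genes along the chromosome was compared with their differences. Within the Oas stretch Oas2, Oas3, Oas1b, Oas1g and Oas1a were higher in BALB/c and lie on both sides of Oas1e and Oas1c. These 2, like Oas1f, did not pass the call, but the low reads of Oas1e were apart between strains at a ratio of 2.95. Outside it, 0 of the 6 nearest tested protein-coding genes (Ddx54, Rasal1 and Dtx1 on one side, Rph3a, Ptpn11 and Rpl6 on the other) passed (limma, adjusted p 0.0813 to 0.803), with 2 at an unadjusted p under 0.05 and 0 called by limma voom. Around the Oasl pair 1 of 6 passed, Sppl3, a protease of the Golgi, with an rlog difference of -0.25 (SE 0.044, adjusted p = 0.00553 by limma), which is lower in BALB/c. Of these 6 genes, 3 were at an unadjusted p under 0.05 by limma and 1 was called by limma voom. The closest tested neighbour of the pair, 2210016L21Rik, had an rlog difference of 0.082 (adjusted p = 0.555 by limma). Rlog differences are shrunken for neighbours with few reads. In mean normalized reads, Rasal1 was at 67.7 in BALB/c against 31.1 in C57BL/6N and Dtx1 at 95.1 against 52.0. On the other side of 0, 4930519G04Rik was at 0 against 12.6.

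**Figure D3:**
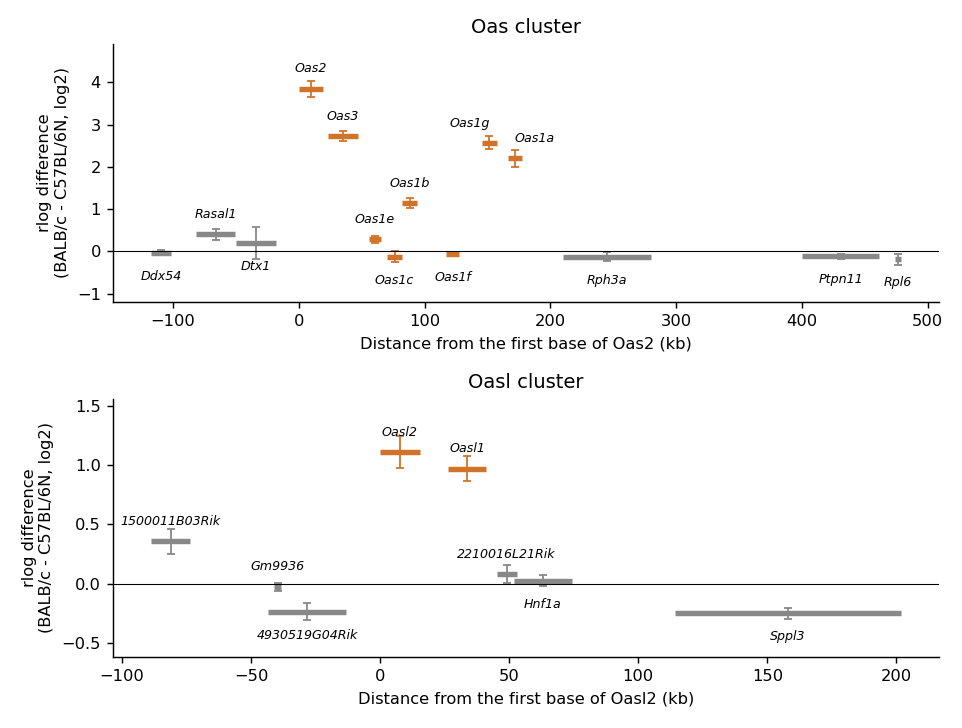
Rlog difference between the strains (BALB/c minus C57BL/6N, bars along each gene, whiskers 1 SE) against distance in kilobases from the first base of Oas2 (top) or Oasl2 (bottom), with family genes in orange and the nearest tested neighbours in grey. The neighbours lie between -0.25 and 0.40 on this scale, which shrinks genes with few reads. Rasal1 at 0.40 and 1500011B03Rik at 0.36 are the highest, and neither passed the call.

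With the strain means removed, the corneas were compared within each strain, which leaves out the contrast that chose the members. Deviations from the strain mean on the rlog scale showed that the members did not move as one. Oas2 deviated by 0.34, 0.22, -0.43 and -0.13 in C57BL/6N corneas 1 to 4, whereas Oas1c deviated by -0.16, -0.30, 0.28 and 0.18. Oas1b and Oasl1 were likewise highest in C57BL/6N 3, the cornea in which Oas1g, Oas2 and Oas3 were lowest. Among the BALB/c corneas, number 3 was the lowest for Oas1a (-0.62), Oas1b (-0.16), Oas1g (-0.39), Oas2 (-0.40), Oas3 (-0.32) and Oasl2 (-0.38). Over the 8 corneas, Pearson correlation of the deviations was 0.91 for Oas1g with Oas3, 0.88 for Oas1g with Oas2, 0.88 for Oas1b with Oasl1 and 0.86 for Oas1b with Oasl2. It was -0.81 for Oas1c with Oas2. These are descriptions over 8 corneas that differ in tissue composition and depth, which can move genes together or apart. Over all 28 pairs the median was 0.38, and without BALB/c 3 it was -0.11.

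The same deviations were set beside the mean of 18 other interferon-stimulated genes and beside the 4 keratocyte markers. With the interferon-stimulated genes the correlation was 0.91 for Oas2, 0.82 for Oas3, 0.81 for Oas1g and 0.70 for Oas1a, and it was 0.29 for Oasl2, -0.08 for Oas1b, -0.10 for Oasl1 and -0.61 for Oas1c. With the keratocyte markers it was -0.88 for Oas1c, -0.79 for Oas1b, -0.67 for Oasl1 and -0.57 for Oasl2. It was -0.28 for Oas1a, 0.09 for Oas3, 0.20 for Oas1g and 0.57 for Oas2. A limma fit of strain and keratocyte score across all genes was added after the data were seen. For the score, 0 of the 8 members passed, against 6.04% of all genes tested. At an unadjusted p under 0.05, 3 members passed. The share of all genes at that unadjusted threshold was not taken, so nothing is read from this count. Oas1c came closest to the call, at -0.11 (SE 0.028) on the rlog scale per unit of score (adjusted p = 0.0220 by limma). Oas1b followed at -0.10 (SE 0.029, adjusted p = 0.0534 by limma). In the 5 stroma-rich corneas alone, the median rlog difference of the members between strains was 1.68, given as a description.

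**Figure D4:**
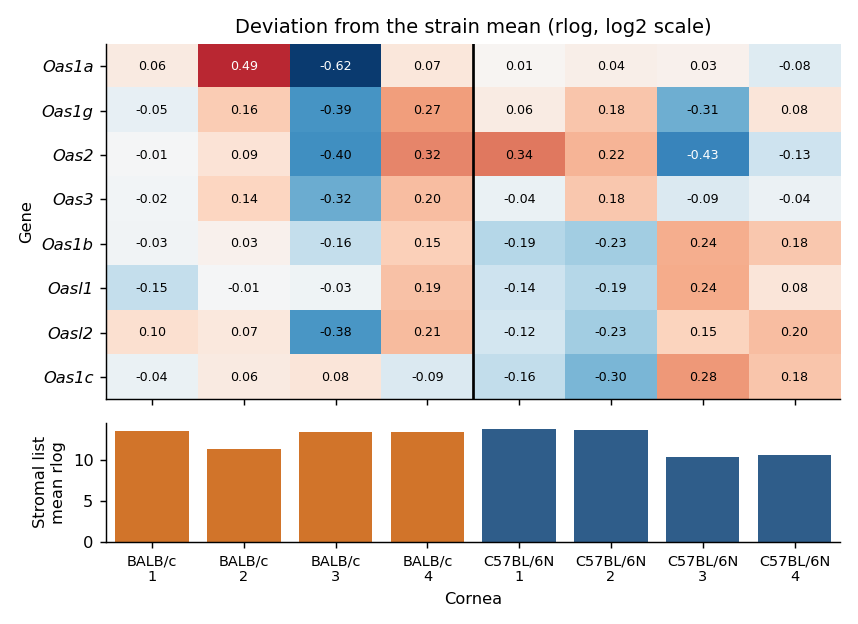
Deviation of each member from its strain mean (rlog, log2 scale, red above and blue below) in the 8 corneas, over bars of the mean rlog value of 4 keratocyte markers in the same corneas. In C57BL/6N 3 and 4, where the bars are at 10.4 and 10.7, Oas1b, Oasl1, Oasl2 and Oas1c are above their strain mean and Oas2 is below it.

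Among 13937 other protein-coding genes whose mean rlog value reached log2 of 10, Phf11a followed the mean deviation of the members most closely (r = 0.99 over 8 corneas). It was also higher in BALB/c, by 1.01 on the rlog scale (SE 0.13, adjusted p = 0.00107 by limma). The next were Ptcd1 (r = 0.98), Ccn5 (r = 0.97), Rps27 (r = 0.97) and Zfp747 (r = 0.97). Their rlog differences between strains were 0.0015, 0.39, 0.079 and -0.037, and these 4 did not pass the call. These r values were picked as the highest of 13937 over 8 corneas, which alone favours values near 1, and are descriptions. They rest mostly on the BALB/c corneas. The mean rlog value of the members was 10.95 in BALB/c 3 and 11.2 to 11.4 in the other BALB/c corneas, but 9.38 to 9.48 in C57BL/6N.

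Genes that act beside the OAS enzymes were read from lists chosen with earlier results of these corneas known. Pde12, a phosphodiesterase that degrades oligoadenylates, was at 730 ± 48.3 normalized reads in BALB/c and 846 ± 59.8 in C57BL/6N, an rlog difference of -0.15 (SE 0.063, adjusted p = 0.181 by limma). Abce1, known as a ribosome recycling factor, was at 2665 ± 205 against 2916 ± 414, a difference of -0.09 (SE 0.083, adjusted p = 0.557 by limma). The strains overlapped for both genes and neither passed the call.

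Of 10 other nucleic acid sensors, 7 passed as higher in BALB/c and 0 as lower, with a median rlog difference of 0.85. They were the cytosolic RNA sensors Ifih1 (1.15), Ddx58 (0.80) and Dhx58 (1.95), the RNA-dependent kinase Eif2ak2 (0.95), the endosomal receptor Tlr3 (0.57), the left-handed nucleic acid sensor Zbp1 (3.23) and the RNA-editing enzyme Adar (0.91). Mavs, the adaptor of the RNA sensors, differed by -0.14 (adjusted p = 0.211 by limma), and the DNA-sensing genes Cgas and Tmem173 by 0.27 and 0.25, and none of the 3 passed.

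Of 21 interferon receptor and signalling genes, 6 passed as higher and 0 as lower, with a median of 0.16. Stat2 (1.16, SE 0.11) and Irf9 (1.59, SE 0.089), which take part in binding the ISRE, were among them, as were the transcription factor Irf7 (1.93) and the feedback inhibitors Usp18 (3.21) and Socs1 (0.66). The receptor genes Ifnar1, Ifnar2, Ifngr1, Ifngr2, Ifnlr1 and Il10rb had rlog differences between -0.20 and 0.16. The kinase genes Jak1, Jak2 and Tyk2 lay between -0.19 and 0.079, and none of these receptor and kinase genes passed. Ifngr1 was lower in BALB/c without overlap (-0.20, SE 0.054, adjusted p = 0.0405 by limma), and the strains overlapped for the others. Of 18 other interferon-stimulated genes, 15 passed as higher and 0 as lower, with a median of 2.38. The largest were Ifi44 (4.75), Rsad2 (4.23), Ifi27l2a (4.09) and Cmpk2 (3.66), and Isg15 was at 4821 ± 1067 normalized reads against 433 ± 24.5. Ifit2, Trim25 and Samhd1 did not pass, and limma voom on recovered reads called 11 of the 18. Ifit2 was higher in BALB/c without overlap (1.18, adjusted p = 0.0198 by limma), and the strains overlapped for Trim25 and Samhd1. On the rlog scale, Oas2 (3.85), Oas3 (2.73) and Oas1g (2.57) lay above the median of these 18 genes and the other 5 members below it. For Oas1a this place depends on the scale. Its rlog difference of 2.20 was below that of Xaf1 (2.23), next under the median. Its ratio of normalized reads, 10.7, was above that of Xaf1, 8.40. Of 21 annotated interferon genes, 5 were not at 0 in all corneas and 0 reached the level at which genes were tested, so no interferon transcript could be compared at this depth.

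**Figure D5:**
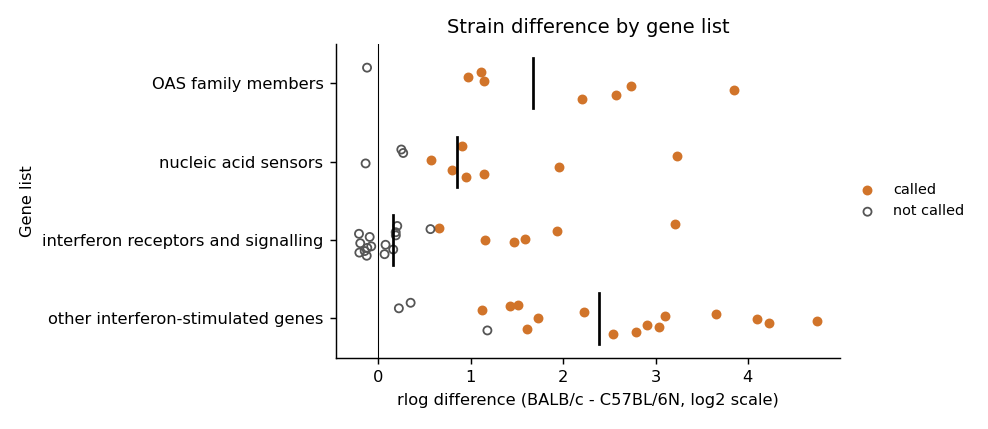
Rlog difference between the strains (BALB/c minus C57BL/6N, log2 scale) of each gene in the family and in 3 lists, with filled points for genes that passed the call, open points for those that did not, and a bar at the median of each list. The median is 1.67 for the OAS family, 0.85 for nucleic acid sensors, 0.16 for interferon receptors and signalling and 2.38 for other interferon-stimulated genes.

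Markers of other cell types were read beside these differences. None of 8 macrophage markers passed, with mean levels over the list that overlapped between strains (mean rlog 6.13 to 6.79 in BALB/c and 5.94 to 6.67 in C57BL/6N). For macrophages the median difference was 0.19, the smallest adjusted p was 0.0978 by limma, 2 of 8 were at an unadjusted p under 0.05, and limma voom called 0. The strains did not overlap for 1 of the 8, Cd68, at 1319 ± 54.7 normalized reads in BALB/c and 1089 ± 141 in C57BL/6N (adjusted p = 0.119 by limma). None of 4 tested dendritic cell markers passed (2 at an unadjusted p under 0.05, 0 by limma voom). Ccr9 was lower in BALB/c without overlap, at 104 ± 17.3 normalized reads against 209 ± 58.0 (adjusted p = 0.0171 by limma). Itgax, with few reads, was on the opposite side, at 18.5 ± 5.62 against 5.95 ± 6.25 with overlap (adjusted p = 0.122 by limma). Of 6 T and NK cell markers, Cd3d, Cd8a, Nkg7 and Ncr1 were listed at 0 in all corneas. None of 4 keratocyte, 2 endothelial or 4 vessel markers passed, by limma or limma voom, with 0, 0 and 1 at an unadjusted p under 0.05. Pigment cell transcripts were high in BALB/c 1 and 4, at a mean rlog value of 10.4 and 11.3 over 5 genes, against 6.55 and 6.22 in BALB/c 2 and 3 and 7.11 to 8.66 in C57BL/6N. Lens transcripts were high in the same corneas, at 7.52 and 6.81 over 6 genes, against 4.74 to 5.42 in the other 6. The conjunctival keratins Krt13, Krt4 and Krt19 were lower in BALB/c, with rlog differences of -2.51, -1.17 and -0.97 (limma, adjusted p 6.95e-07 to 0.000879). The mucin gene Muc5ac, the other marker of the conjunctiva list, was on the opposite side, at 260 ± 246 normalized reads in BALB/c and 1.52 ± 1.95 in C57BL/6N without overlap, and did not pass the call (rlog difference 2.19, adjusted p = 0.0225 by limma). The part of these cell types in the OAS values was not tested, apart from the fits with the keratocyte score.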

How the data were processed

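Total RNA of 4 BALB/c and 4 C57BL/6N corneas was sequenced as strand-specific paired reads. The authors aligned the reads to strain-specific versions of GRCm38 with TopHat2 (2.1.1), counted them per Ensembl gene with HTSeq (0.7.1) and deposited log2-scale values from the rlog transformation in DESeq2 (1.30), which pull weakly expressed genes towards their mean. Tool versions are from the submitters' processing notes. All columns were mapped to corneas by the labels and 0 were left unused.

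The comparison of strains used lmFit and eBayes of limma 3.58.1 under R 4.3.3, with a variance trend, for the genes whose rlog values averaged 0 or more. Benjamini-Hochberg adjustment covered all 25402 genes tested and the call was set at 0.01. Read counts were recovered by inverting the rlog transformation. Its constants were fitted to mean counts of 1759 genes in the part of the study's supplementary data read here, and no value of that list is reported. Normalized reads are recovered reads divided by a size factor. The procedures were tested on simulated data, where recovery used the model that had made the data. Chi-square per gene between corneas of a strain lay between 10.9 and 94.1, so no pair agreed within sampling noise. Intervals and SEs do not cover PCR duplicates. Transcript lengths and shared stretches came from a GRCm38 annotation that held 31278 of the 31314 genes not at 0, and promoters from RefSeq. Python 3.11.15 and pandas 2.3.3 were used for numbers and matplotlib 3.10.9 for plots.

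Members, lists and tests were chosen with earlier results of these data known. Genes named are the members, the other family genes, the listed pathway genes and cell type markers (some listed genes are not reported here), the 3 tested protein-coding neighbours closest to either end of both clusters, and the 5 genes most alike to the members. Alternatives were no variance trend, a robust fit, other filters, median centring, quantile normalization, an empirical null, an adjusted p of 0.05, the replicate number as a block, each cornea left out, limma voom on recovered reads, the longest transcript as gene length and, chosen after seeing the data, a keratocyte covariate and the 5 stroma-rich corneas.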

Additional observations from a re-analysis of the deposited data

Results flagged for a closer look

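Of 54 groups of 4 corneas examined for a single far value, 2 were flagged, where chance gives 2.7. BALB/c 2 stood apart from the other BALB/c corneas in the mean rlog value of the keratocyte markers, at 11.4 against 13.5 for the nearest cornea, with a gap of 0.929 of the range. It also stood apart in the mean of the corneal endothelium markers Col8a2 and Slc4a11, at 12.8 against 13.2, with a gap of 0.863 of the range. None of the 8 members had a cornea flagged in this way in either strain.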

How the results depend on the processing

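The strain differences of the members are descriptions, and their range over the alternatives carries no test. Of 160 values of single members, 1 changed sign, that of Oas1c (0.089 in the 5 stroma-rich corneas against -0.12), and 7, those under the empirical null, moved to the other side of the threshold used for all genes. With the empirical null, whose standard deviation was 1.67, 0 members, 0 pathway genes and 0 of all genes were called (at an unadjusted p under 0.05, 7, 28 and 1725). Over all genes 1458 were called, against 958 after median centring, 2359 with the keratocyte covariate, 852 in the 5 stroma-rich corneas, 2842 at an adjusted p of 0.05 and 951 to 1162 when a cornea was left out (951 without C57BL/6N 4, 971 without BALB/c 3, 973 without BALB/c 1 and 982 without BALB/c 4). The median difference of the members was 2.48 with limma voom on recovered reads, which are not shrunken. The median correlation of members within strains ranged from -0.11 without BALB/c 3 to 0.48 when a cornea was left out. The order of levels per kilobase kept 28 of 28 pairs with each cornea left out and with the longest transcript as length. The sizes of the gaps did change. Per kilobase of longest transcript, Oasl1 and Oasl2 were at 6821 ± 890 and 6458 ± 1347 in BALB/c. In C57BL/6N they were at 2826 ± 537 and 2331 ± 445. The wider gap per kilobase of exon thus depends on the exon length taken for Oasl2, 6374 bases against 3123 in its longest transcript. Reads limit Oas1g in C57BL/6N and all of Oas1d, Oas1f and the interferon genes.

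With the replicate number as a block, 554 genes were called. The correlations of same-numbered corneas were 0.318, -0.544, -0.211 and -0.466, with no common sign. Stromal content also differs between corneas and enters these values, so they cannot decide whether the numbers pair the corneas.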
